A study of Mus musculus with 236 samples.

Results

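The genes described here are those of voltage-gated ion channels and of potassium channels. They were taken from the expression table by symbol: every row named as a potassium channel gene (Kcn followed by family letters and a number), a calcium channel pore subunit (Cacna1), a calcium channel auxiliary subunit (Cacna2d, Cacnb, Cacng) or a sodium channel subunit (Scn with a final a or b). This gave 130 of the 39300 gene rows. Of these, 75 had at least 20 UMIs (unique molecular identifiers, each counting 1 captured RNA molecule) over all cells and are called measured, 45 had fewer and 10 had none. This rule reads symbols and the minimum only, but channel genes were taken up as a class with earlier results of these data known.

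The cells came from a female mouse embryonic stem cell line derived from blastocysts of C57BL/6J females crossed to CAST/EiJ males. The line was kept on gelatin in serum medium with LIF, the GSK3 inhibitor CT99021 and the MEK inhibitor PD0325901, and LIF and both inhibitors were then withdrawn on fibronectin with serum still present. Group d05 was taken at day 0.5 and group d25 at day 2.5, so both groups share the line, the crossed genome and the withdrawal, and neither is an undifferentiated control. RNA and chromatin contacts were read from each cell with HiRES, in 236 libraries of 1 to 2 cells each, 120 of them of d05. The labels name no separate cultures and the line is 1 line, so each day counts as 1 sample. No test between the days was possible, and every interval below covers counting error only.

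Voltage-gated channels are membrane pores that open or close with the voltage across the membrane, and the flow of potassium, calcium or sodium through them sets that voltage in turn. Potassium channels mostly hold or restore the resting voltage, sodium channels carry the fast upstroke of the action potential, and calcium channels turn voltage into a calcium signal inside the cell. Pore subunits form the pore itself, while auxiliary subunits alter its gating or its transport to the surface. These genes are best known from neurons, heart and muscle. Transcript levels say nothing about currents.

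The expression table held 201 cells of d05 and 205 of d25. They summed to 2655980 and 3186070 UMIs, with medians of 13670 (501 to 23213) and 15796 (529 to 29275) UMIs per cell. Only 26.3% and 24.2% of gene UMIs lay on exons, a share over all genes. How the UMIs of the channel genes split between exons and introns was not tested. The cell table gives each cell 1 of 3 labels, and no source used here says what they mean. Label 1 held 80 cells of d05 only, label 3 held 83 of d25 only, and label 2 held 121 of d05 and 122 of d25. The days can therefore be compared in 2 sets of cells with no cell in common: within label 2, and label 3 over label 1. Levels are CPM, a gene's UMIs per 1000000 UMIs of all genes. A gene was called higher or lower when its CPM at d25 over that at d05 was at least 1.5 or at most 0.667, which is a rule of size and not a test.

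Markers placed the cells where the labels do, in the exit from naive pluripotency. All 9 measured naive markers of 12 were lower at d25, with Esrrb going from 339 to 12.4 CPM. Of 9 measured formative and primed markers, 7 were higher, with Fgf5 going from 3.01 to 121 CPM. Of 7 core pluripotency markers, all of them measured, 4 were lower and 3 neither, and their sum went from 1147 to 967 CPM. Among them Pou5f1 went from 31.3 to 13.5 CPM. Among markers of other cell types, those of neurons had the highest sum. Neural progenitor markers summed to 9.79 CPM at d05 and 7.38 at d25, and only 1 of 9 (Pax6) was measured. Fabp7 and Neurog1 had no UMI. Of 17 neuron markers 12 were measured, 5 of them higher and 2 lower, and their sum went from 602 to 442 CPM with Stmn2 at 372 and 81.9 CPM. Syt1 was at 19.6 and 84.9 CPM. Heart and skeletal muscle markers summed to 18.4 and 44.4 CPM, with Actn2 at 10.5 and 38.1 CPM, while Actc1, Myl7, Nkx2-5 and Myog had no UMI. Primitive endoderm and endoderm markers summed to 25.8 and 44.9 CPM, mesoderm and fibroblast markers to 12.4 and 8.16 CPM, and blood, liver and pancreas markers to 6.21 and 3.77 CPM. What the neuron markers that were higher contribute to the channel levels was not tested.

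Channel genes as a group stood higher at day 2.5. Their summed level went from 2197 CPM at d05 to 4547 CPM at d25, a ratio of 2.07 (95% interval 2.01 to 2.13). The 4 sets of cells read 2252 CPM in label 1 and 2150 CPM in label 2 at d05, against 4477 CPM in label 2 and 4634 CPM in label 3 at d25. The levels at each day were thus close to each other and the days did not overlap. Without Cacna1a and Cacnb2, the pair with the most UMIs, the sum still went from 1752 to 3836 CPM. Of the 75 measured genes, 37 were called higher (49.3%), 15 lower and 23 neither. Over all 13777 genes with at least 20 UMIs the same rule called 21.4% higher and 25.6% lower. When the call had to hold in both sets of cells, 33 channel genes were higher and 10 lower, against 16% and 17.6% of all genes. The median log2 ratio was 0.54 over the measured channel genes and -0.08 over all genes. It was 0.70 within label 2 and 0.37 for label 3 over label 1.

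**Figure D1:**
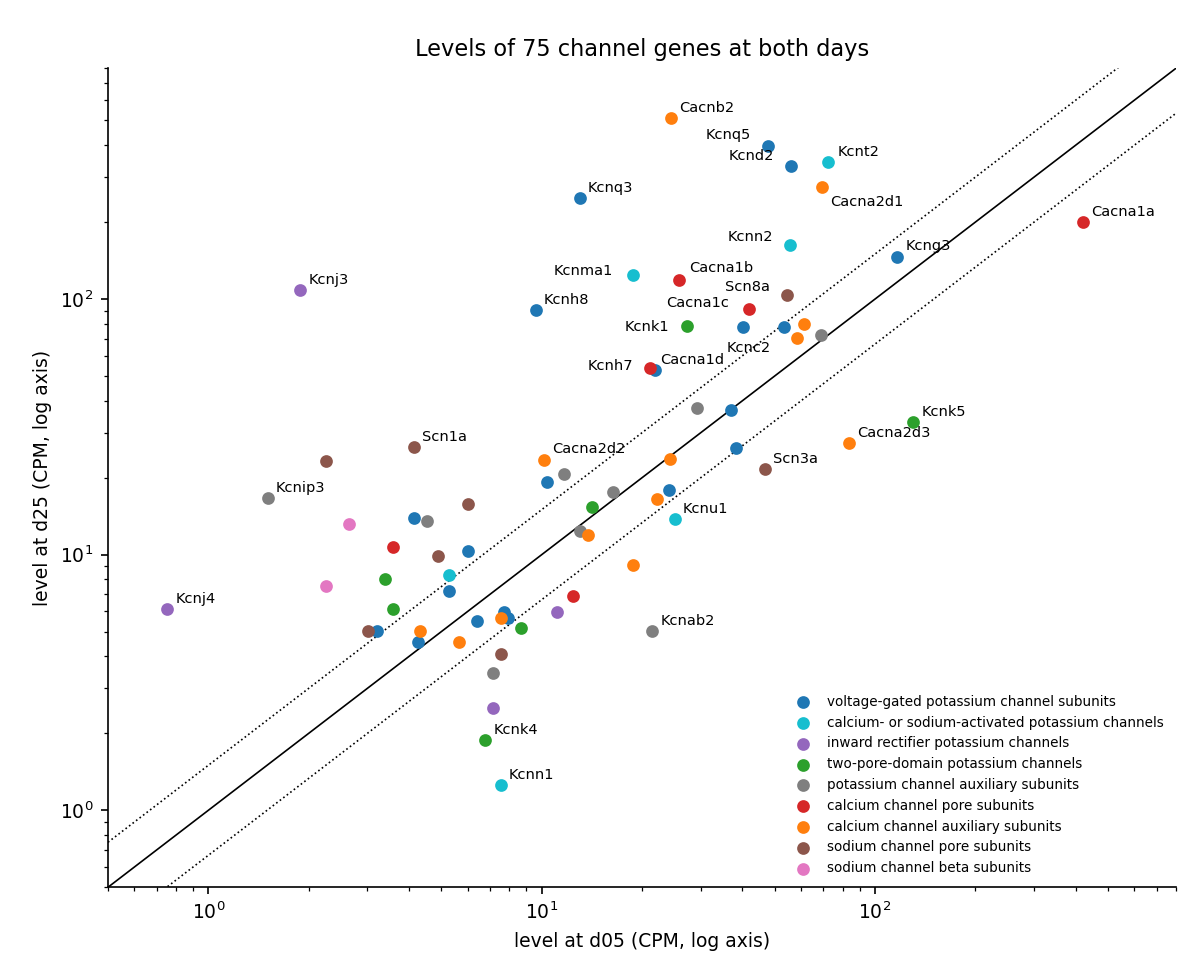
Level of each of the 75 measured channel genes at d05 (horizontal) and d25 (vertical), in CPM on log axes, coloured by class. The solid line marks equal levels and the dotted lines a ratio of 1.5 either way. Kcnj3, Cacnb2 and Kcnq3 lie farthest above the line, and Kcnk5, Cacna2d3 and Cacna1a are the most abundant genes well below it.

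The difference was spread over the cells. Among cells with at least 5000 UMIs, the summed channel level per cell ranged from 145 to 4448 CPM with a median of 2171 CPM in 194 cells of d05. In 198 cells of d25 it ranged from 995 to 11229 CPM with a median of 4429 CPM. Of the d25 cells, 186 lay above the d05 median and 97 above the highest d05 cell, while 1 d05 cell lay above the d25 median. Counts were also drawn down to 5000 UMIs in every cell that had as many (194 of 201 d05 and 198 of 205 d25 cells). After this thinning a median of 7 channel genes (1 to 15) was seen per d05 cell and 12 (2 to 21) per d25 cell. At full depth, 3 channel genes had a UMI in over 50% of d05 cells, namely Cacna1a, Kcnk5 and Kcnmb4. At d25 there were 16 such genes, and Kcnk5 was not among them.

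**Figure D2:**
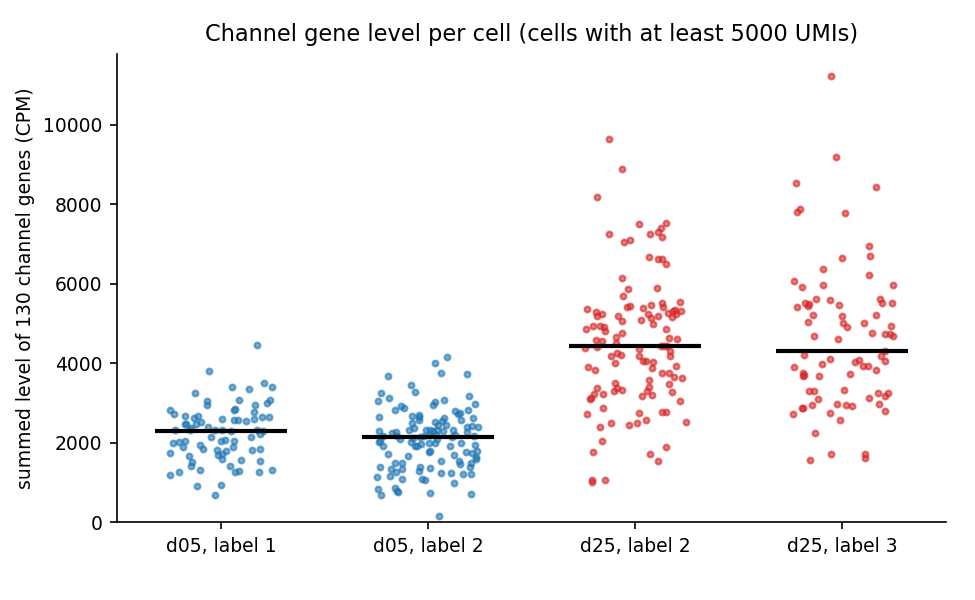
Summed level of the 130 channel genes in each cell with at least 5000 UMIs, in CPM, by day and label. Each point is a cell, spread sideways at random, and the bars are medians. Over both labels the median is 2171 CPM at d05 and 4429 CPM at d25, and the spread is wider at d25.

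Many channel genes are long. The RefSeq span, from the first to the last base of a gene, was over 100 kb for 42 of the 75 measured channel genes, and 27 of these were called higher and 7 lower. Among all genes of such span the rule called 37.3% higher and 17.6% lower. For spans of 20 to 100 kb, 8 of 25 channel genes were higher and 5 lower, against 20.9% and 21.2% of all genes of that span. Under 20 kb, 2 of 8 were higher and 3 lower, against 14.1% and 34.7%. The share called higher thus grew with span over all genes as well as over the channel genes, where it was 64.3% in the longest class. The part of span in the result was not tested.

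**Figure D3:**
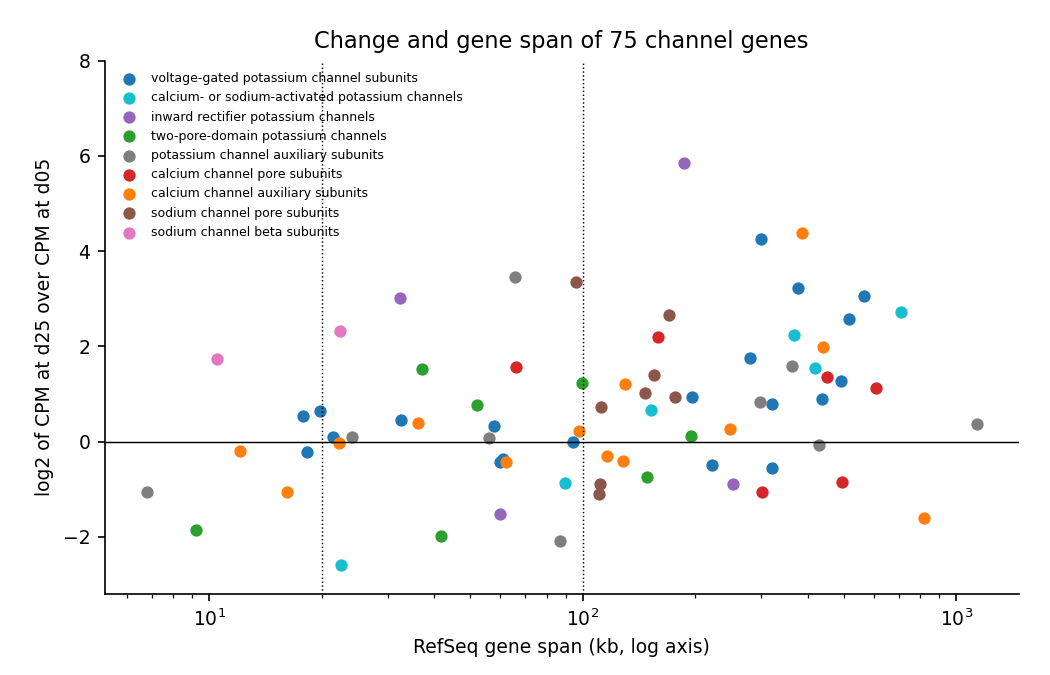
Log2 of CPM at d25 over CPM at d05 for the 75 measured channel genes against their RefSeq span in kb, on a log axis, coloured by class. Dotted lines mark 20 and 100 kb. The highest ratios lie mostly to the right of 100 kb, where 27 of 42 genes were called higher.

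By class, voltage-gated potassium channel subunits, calcium- or sodium-activated potassium channels and calcium channel auxiliary subunits held most of the added UMIs. Calcium channel pore subunits and two-pore-domain potassium channels summed to slightly less at d25.

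**Figure D4:**
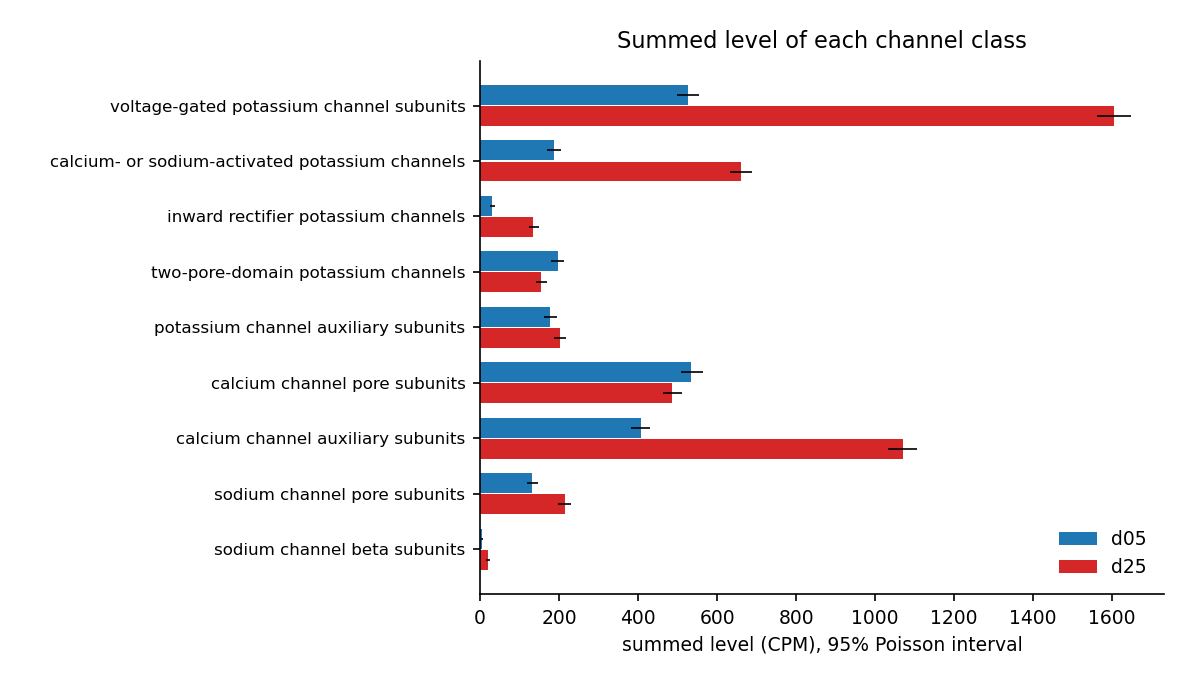
Summed level of each class of channel gene at d05 and d25, in CPM, with exact Poisson intervals. The sum over voltage-gated potassium channel subunits went from 527 to 1604 CPM, whereas that over calcium channel pore subunits went from 535 to 486 CPM.

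The widest change of all was in an inward rectifier, a potassium channel that passes current inward more readily than outward and steadies the resting voltage. Kcnj3 encodes GIRK1, a subunit of the channel that G proteins open. It had 5 UMIs at d05 and 346 at d25, or 1.88 and 108.6 CPM, a ratio of 57.7 (24.5 to 179). Its levels were 1.65 and 2.08 CPM in labels 1 and 2 at d05, and 93.5 and 128 CPM in labels 2 and 3 at d25. A UMI of it was seen in 2.49% of d05 cells and 47.3% of d25 cells, or 0.515% and 35.9% with each cell thinned to 5000 UMIs. At d25 it was uneven across the authors' cell cycle classes, at 178 CPM (155 to 205) in 82 G1 cells and 40.9 CPM (29.7 to 55.0) in 62 mid-S cells. Cacnb2 encodes a beta subunit that brings voltage-gated calcium channels to the surface. It read 22.6 and 26.03 CPM in labels 1 and 2 at d05 and 524 and 491 CPM in labels 2 and 3 at d25. It had a UMI in 19.4% of d05 and 83.4% of d25 cells (9.79% and 67.7% after thinning). At the other end, Kcnk5 encodes TASK-2, a two-pore-domain channel that carries a resting leak of potassium and responds to pH. It read 128 and 132 CPM at d05 and 40.6 and 23.4 CPM at d25, a ratio of 0.25 (0.20 to 0.32) over both labels. Its share of cells with a UMI went from 66.2% to 34.1%, or from 45.4% to 19.2% after thinning.

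The 250 bases before the RefSeq starts of these genes (GRCm38) are shown because these genes stand at both ends of the ranking among those with at least 100 UMIs. CG dinucleotides, the sites of CpG methylation, are in capitals. Each sequence is read 5′ to 3′ on the gene's strand. Kcnj3 is at chr2:55435720-55435969 on the plus strand, a window that lies inside the RefSeq span of the gene, as does that of Cacnb2. Cacnb2 (the inner of its listed starts) is at chr2:14823842-14824091 on the plus strand and Kcnk5 at chr14:20181783-20182032 on the minus strand.
Kcnj3: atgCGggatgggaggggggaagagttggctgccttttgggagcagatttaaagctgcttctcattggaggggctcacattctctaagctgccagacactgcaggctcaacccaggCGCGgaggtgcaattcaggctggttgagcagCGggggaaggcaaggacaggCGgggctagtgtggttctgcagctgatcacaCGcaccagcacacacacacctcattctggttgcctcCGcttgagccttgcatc
Cacnb2: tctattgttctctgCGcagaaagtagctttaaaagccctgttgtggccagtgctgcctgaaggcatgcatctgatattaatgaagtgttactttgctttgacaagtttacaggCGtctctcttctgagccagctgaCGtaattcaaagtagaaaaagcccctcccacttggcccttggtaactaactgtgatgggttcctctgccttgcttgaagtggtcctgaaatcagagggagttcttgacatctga
Kcnk5: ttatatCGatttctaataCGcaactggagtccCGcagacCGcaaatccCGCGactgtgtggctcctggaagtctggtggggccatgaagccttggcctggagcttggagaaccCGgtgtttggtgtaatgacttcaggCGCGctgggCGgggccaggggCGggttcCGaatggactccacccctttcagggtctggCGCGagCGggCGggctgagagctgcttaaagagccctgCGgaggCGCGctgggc
The Kcnj3 window holds 7 CG in 250 bases with 58.4% G and C, the inner Cacnb2 window 3 CG with 46%, and the Kcnk5 window 19 CG with 62.8%. The outer Cacnb2 window and that of Cacna2d3, another gene with a low ratio, hold 30 CG each. Over the 32851 promoter windows of the table the median was 6 CG, and the middle 50% ran from 2 to 16. Taking for each gene its window with the most CG, the median was 16 CG for 30 higher channel genes (0 to 50), 16 for 11 lower ones (3 to 30) and 15 for 15 that were neither. Over all measured genes with a window, taken the same way, it was 16 CG for higher, 15 for lower and 18 for other genes. The repressor REST is known to bind a long motif in neuronal genes. Its left part TTCAGCACC was searched on both strands. A window of 0 of the 30 higher, 11 lower and 15 other channel genes held it. Over all higher, lower and other genes the shares were 0.190%, 0.577% and 0.373%. With shares this small, 0 among so few channel genes decides nothing about REST sites. The right part GGACAG was in 5 of 30 higher, 4 of 11 lower and 4 of 15 other channel genes. Over all higher, lower and other genes its shares were 23.7%, 23.3% and 21.2%. Over all windows the shares were 0.301% for the left part and 18.7% for the right.

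Voltage-gated potassium channel subunits (Kcna to Kcnd, Kcnf, Kcng, Kcns, Kcnv, Kcnh and Kcnq) numbered 40, of which 20 were measured. Of these 10 were called higher, 0 lower and 10 neither, and their sum went from 527 to 1604 CPM, with a ratio of 3.04 (2.87 to 3.23). Members of the Kcnq family other than Kcnq1 carry the slow M current that dampens firing. Kcnq5 was at 48.5 and 47.2 CPM at d05 and at 361 and 446 CPM at d25, a ratio of 8.33 (6.94 to 10.1). Kcnq3 was at 8.64 and 16.7 CPM at d05 and at 227 and 276 CPM at d25, a ratio of 19.2 (13.6 to 27.8). Its levels at d05 already differed between the labels, so its ratio was 13.6 within label 2 and 31.99 for label 3 over label 1. Kcnq1, the slow repolarising channel of heart, had no call, at 38.4 and 26.2 CPM. Kcnq1 shares its locus with the long noncoding RNA Kcnq1ot1 on the other strand, which had 6344 UMIs. Whether counting used strand is unknown, so the level of Kcnq1 is uncertain.

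Kcnd2 encodes Kv4.2, which carries a fast inactivating A-type current, and was at 44.8 and 65.3 CPM at d05 and 344 and 318 CPM at d25, a ratio of 5.94 (5.00 to 7.10). Kcnd3, its relative, had levels of 7.91 and 5.65 CPM. Of the Kcnh family, related to ether-a-go-go, 5 of 6 measured members were higher and 1 neither. Kcnh8 was at 9.05 and 10.1 CPM at d05 and 100.3 and 77.9 CPM at d25, a ratio of 9.42 (6.27 to 14.7). The log2 ratio of Kcnh8 was 3.23 over summed UMIs and 2.24 with every cell weighted equally. In the latter, 1 d05 cell with only 501 UMIs over all genes read 1996 CPM, which is 1 UMI of Kcnh8. Kcnh7 was at 26.3 and 18.1 CPM at d05 and 30.4 and 80.8 CPM at d25, so its ratio of 2.41 (1.78 to 3.31) came with labels that differed at d25. Of its UMIs 9.73% were from 1 cell. Kcnh5 was at 8.23 and 0.694 CPM at d05 and 12.96 and 15.2 CPM at d25.

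Kcnc2, of the family of fast channels, was at 40.3 and 77.5 CPM, a ratio of 1.92 (1.53 to 2.44). The delayed rectifier Kcnb2 went from 10.4 to 19.3 CPM with 15.2% of its UMIs from 1 cell. The silent subunits of the Kcnf, Kcng, Kcns and Kcnv families form no channel alone and alter Kcnb channels. None of the 3 measured ones was called, and Kcng3 was at 116.3 and 147 CPM. Of 8 Kcna genes only Kcna6 was measured, at 5.27 and 7.22 CPM.

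Potassium channels opened by calcium or sodium gave 4 higher and 2 lower of 6 measured, and summed to 187 and 660 CPM, a ratio of 3.54 (3.20 to 3.91). Kcnt2 encodes a sodium-activated channel and was at 43.6 and 96.2 CPM in labels 1 and 2 at d05 and at 339 and 348 CPM at d25. The labels agree at d25 and differ at d05, so the ratio of 4.76 (4.08 to 5.58) was 3.53 within label 2 and 7.97 for label 3 over label 1. Kcnma1, the BK channel of large conductance, was at 12.3 and 24.3 CPM at d05 and 128 and 120 CPM at d25, a ratio of 6.60 (4.91 to 9.05). Kcnn2, a channel of small conductance opened by calcium through calmodulin, went from 55.7 to 162 CPM, with a ratio of 2.91 (2.42 to 3.52). Its relative Kcnn1 was at 7.53 and 1.26 CPM, on 24 UMIs. Kcnu1, known from sperm, was at 25.0 and 13.8 CPM.

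Beside Kcnj3 only 3 of 15 inward rectifier genes were measured. Kcnj6, whose GIRK2 protein pairs with that of Kcnj3 in brain, was at 11.1 and 5.96 CPM. Kcnj16 was at 7.15 and 2.51 CPM, and Kcnj4, the measured gene with the fewest UMIs (21.5), at 0.753 and 6.12 CPM. Without Kcnj3 and Kcnj6 the family summed to 17.3 and 20.7 CPM, so its ratio of 4.46 (3.51 to 5.74) rests on Kcnj3. The median log2 ratio of the 4 genes was 1.02 within label 2 and -0.42 for label 3 over label 1. Just outside the minimum lay Kcnk6 with 19.5 UMIs, at 1.13 and 5.18 CPM, and Cacna1h with 19.3 UMIs, at 4.14 and 2.62 CPM.

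Two-pore-domain channels were split, with 3 higher and 3 lower of 7 measured and a sum of 196 and 154 CPM. Kcnk1, or TWIK-1, was at 35.8 and 20.1 CPM at d05 and 75.8 and 81.1 CPM at d25, a ratio of 2.86 (2.20 to 3.77). Per kb of span, Kcnk5 stood at 3.11 CPM at d05 and 0.790 CPM at d25, while Kcnk1 went from 0.737 to 2.11 CPM, so their order turned between the days. Kcnk4, or TRAAK, a channel opened by membrane stretch, was at 6.78 and 1.88 CPM. Kcnk2, or TREK-1, which also responds to stretch, was at 14.1 and 15.4 CPM, and Kcnk13 at 3.39 and 8.004 CPM. The median log2 ratio of the class was 0.65 within label 2 and -0.31 for label 3 over label 1, so the class as such had no common direction.

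Auxiliary subunits of potassium channels were measured for 9 of 14 genes, with 3 higher, 2 lower and 4 neither, and summed to 178 and 202 CPM. The KChIP proteins of the Kcnip family bind Kv4 channels such as Kcnd2. Kcnip3 went from 1.51 to 16.6 CPM, with a ratio of 11.05 (4.07 to 42.03), and Kcnip1 from 4.52 to 13.5 CPM. Kcnip2 was at 16.4 and 17.6 CPM and Kcnip4 at 29.2 and 37.5 CPM. The beta subunits of Kv1 channels, the Kcnab family, gave 2 lower of 3, with Kcnab2 going from 21.5 to 5.02 CPM and Kcnab3 from 7.15 to 3.45 CPM. Of the BK beta subunits, Kcnmb4 was at 69.1 and 72.3 CPM while its pore Kcnma1 went from 18.8 to 124 CPM. No Kcne gene was measured.

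Among calcium channel pore subunits 4 were higher and 2 lower of 6 measured. Cacna1a forms the P/Q-type channel and had more UMIs than any other channel gene here. It was at 445 and 400 CPM at d05 and at 177 and 230 CPM at d25, a ratio of 0.48 (0.43 to 0.53), and had a UMI in 86.1% of d05 and 80.5% of d25 cells (75.8% and 51.5% after thinning). Cacna1b forms the N-type channel, which like the P/Q type triggers transmitter release in neurons. It was at 28.8 and 23.3 CPM at d05 and 105.9 and 135 CPM at d25, a ratio of 4.60 (3.55 to 6.04). The L-type subunits Cacna1c and Cacna1d, known from heart, muscle and endocrine cells, were at 41.98 and 91.5 CPM and at 21.1 and 53.7 CPM. Cacna1e, the R-type subunit, was at 12.4 and 6.91 CPM, and Cacna1g, a T-type subunit opened by small depolarisations, at 3.58 and 10.7 CPM. The class summed to 535 and 486 CPM with Cacna1a, and to 88.8 and 167 CPM without Cacna1a and Cacna1b.

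Calcium channel auxiliary subunits summed to 406 and 1069 CPM, a ratio of 2.63 (2.46 to 2.82). Without Cacnb2 and Cacna2d1 the sum was 312 and 285 CPM. Cacnb2 alone went from 24.5 to 510 CPM, and per kb of span it reached 1.32 CPM at d25 against 0.665 CPM for Cacna1a. The other beta subunits differed from it: Cacnb4 was at 58.2 and 70.1 CPM and Cacnb3 at 18.8 and 9.10 CPM. The alpha2delta subunits raise the number of calcium channels at the surface, and their genes differed in direction. Cacna2d1 was at 74.04 and 65.3 CPM at d05 and 270 and 280 CPM at d25, a ratio of 3.96 (3.38 to 4.67). Cacna2d3 was at 81.4 and 85.4 CPM at d05 and 31.6 and 21.97 CPM at d25, a ratio of 0.33 (0.25 to 0.42). Cacna2d2 went from 10.2 to 23.5 CPM. Of the Cacng family, whose members include the TARP partners of AMPA receptors, 6 were measured and 0 called, with Cacng7 at 61.2 and 80.2 CPM, Cacng8 at 24.3 and 23.7 CPM and Cacng4 at 22.2 and 16.5 CPM.

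Sodium channel pore subunits were higher for 6 and lower for 2 of 8 measured, with a sum of 133 and 214 CPM. Scn8a, or Nav1.6, was at 59.6 and 50.3 CPM at d05 and 103.9 and 103.8 CPM at d25, a ratio of 1.90 (1.56 to 2.33). In the cells whose names carry the letter B, 42 of d05 and 32 of d25 and all in label 2, its log2 ratio was -0.20. Scn3a, or Nav1.3, known from embryonic brain, was the main gene that was lower, at 52.7 and 41.7 CPM at d05 and 18.6 and 25.5 CPM at d25. Scn1a, the main sodium channel of fast inhibitory neurons, was at 4.14 and 26.4 CPM with a ratio of 6.37 (3.38 to 13.2). The neuronal channels Scn2a and Scn9a were at 4.89 and 9.89 CPM and at 6.02 and 15.9 CPM. The beta subunit Scn3b, which modulates the pore, was higher at low levels, at 2.64 and 13.2 CPM with 16.3% of its UMIs from 1 cell.

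**Figure D5:**
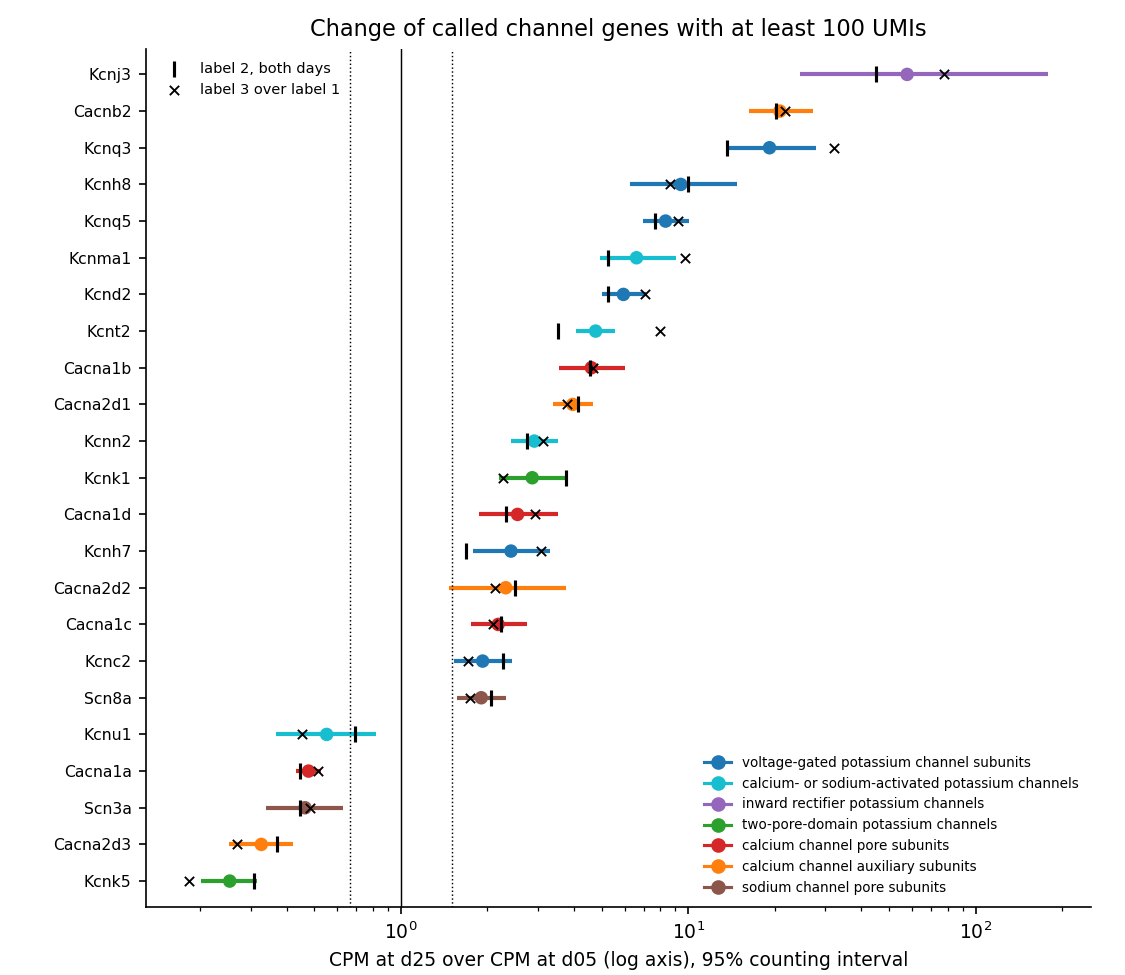
CPM at d25 over CPM at d05, on a log axis, for the channel genes with at least 100 UMIs that were called higher (18) or lower (5), with 95% counting intervals and coloured by class. Bars mark the ratio within label 2 and crosses that of label 3 over label 1, and dotted lines a ratio of 1.5 either way. The calls of 18 genes as higher hold in both sets of cells, and 4 of the 5 lower ones do, the exception being Kcnu1.

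Of the 34 channel genes with at least 100 UMIs 18 were higher, 5 lower and 11 neither. Counting intervals excluded a ratio of 1 for 32 of the 37 higher and 12 of the 15 lower genes. Because these genes were called by the size of the same ratios, such counts are raised by the choice itself. Matching shares over all called genes are not given here, so the counts do not set channel genes apart from other genes. The calls not shared by both sets of cells were those of Kcnmb2, Kcnn3, Kcnh4 and Kcnj4 among the higher genes and of Kcnu1, Cacna1e, Kcnj6, Scn10a and Kcnab3 among the lower ones. The 12 genes with 20 to 99 UMIs that were neither had ratios from 0.715 to 1.37. Of the 75 genes, 17 overlap another gene that the table counts, among them Cacna1d with Dcp1a and Chdh, Cacna1c with Dcp1b and Kcnt2 with 4930590L20Rik, and their reads cannot be told apart without strand.

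Because most gene UMIs of these libraries lay outside exons, levels of different genes are also given per kb of span. On that scale Kcnk5 (3.11 CPM per kb), Kcng3 (2.01), Cacng7 (1.69) and Cacna1a (1.39) were among the highest measured channel genes at d05. At d25 Kcng3 (2.53 CPM per kb), Cacng7 (2.22), Kcnk1 (2.11) and Cacnb2 (1.32) were among the highest. Kcnj3 went from 0.0101 to 0.583 CPM per kb. Kcng3 and Cacng7, neither of them called, thus stayed among the leaders at both days.

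Levels also differed within a day. Summed channel levels by the authors' cell cycle class at d25 were 6779 CPM (6087 to 7528) in 4 G0 cells, 4704 CPM (4579 to 4832) in 82 G1 cells, 5093 CPM in 15 early-S cells, 4237 CPM (4115 to 4362) in 62 mid-S cells, 3995 CPM in 17 late-S cells, 4959 CPM (4736 to 5189) in 18 G2 cells and 1911 CPM (1517 to 2377) in 7 M cells. At d05 they were 2022 CPM in 41 G1 cells, 2537 CPM in 32 early-S cells, 2185 CPM in 87 mid-S cells, 2436 CPM in 20 late-S cells, 1826 CPM in 6 G2 cells and 1384 CPM (1173 to 1621) in 15 M cells. M cells had the lowest sum at both days. Every other class of d25 had a higher sum than any class of d05. Cacna1a was lower in G1 than in mid-S cells at both days, at 278 and 450 CPM for d05 and at 158 and 241 CPM for d25. In late-S cells it was at 507 CPM at d05 and 129 CPM at d25, so the order of the classes was not the same at both days. Cells that were also in the chrX allele table summed to 2232 CPM at d05 and 4494 CPM at d25.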

How the data were processed

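Single cells of a mouse embryonic stem cell line were sampled at 2 days after withdrawal of LIF and 2 inhibitors. In the authors' deposited expression table each value is an expected count of UMIs for 1 gene in 1 cell, as header and values show, and fractions make up 11.1% of the values above 0. The deposited cell tables give counts of UMIs on exons and in genes, and the authors' labels and cell cycle classes. The submitters' processing notes name the build GRCm38. No source used here gives the aligner, the counting tool or the use of strand. Of 471 cells named in the sample titles, 406 were in the table, and its 1101 other columns were not used.

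Fractional counts were summed by day as deposited, and rounded only for thinning, which left out 7 cells of each day. Levels have exact Poisson intervals, ratios exact conditional ones and shares Clopper-Pearson ones, at 95%. A count of 0 was set to 3 counts for a ratio. Members with at least 100 UMIs were named, with the 5 highest and 5 lowest ratios among those with 20 to 99. Others were named where a family needed it, and some members are not reported here. Sequences and spans are RefSeq's, matched by symbol for 130 genes (promoters for 95). Members and lists were chosen with earlier results of these data known. Scripts used Python 3.11.15, NumPy 2.4.6, pandas 2.3.3 and SciPy 1.17.1 and were tested on simulated data. The 15 alternatives covered scaling, minimum, threshold, pseudocount, labels, letters in cell names, depth, single cells and cell cycle.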

Additional observations from a re-analysis of the deposited data

How the results depend on the processing

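No paired analysis was possible because each day counts as 1 sample and no result comes from a test. Over the 15 alternatives, between 26 and 46 channel genes were higher and between 8 and 19 lower. The number of genes counted differed too, with 26 of 49 higher at a minimum of 50 UMIs and 46 of 91 at a minimum of 10. Shares over all genes under these settings are not given here. The median log2 ratio stayed between 0.37 and 0.90. At a minimum of 50 UMIs 8 were lower, of 49 genes left. The summed ratio of 2.07 became 2.19 under median-ratio scaling and 2.52 in cells with letter B, all of which lie in label 2 (42 cells at d05, 32 at d25). Of 33 named genes called, 27 stayed past a ratio of 1.5 under each of the 12 alternatives that give a value per gene; Scn8a, Scn3a, Kcnu1, Kcnn1, Kcnab3 and Kcnj4 did not. The other 3 alternatives change the call or the minimum itself. A minimum of 10 UMIs only adds genes, while a ratio of 2 and a minimum of 50 lose calls by construction. Kcnc2, at 1.92, is not called at a ratio of 2, and Kcnk4, Kcnj16 and Scn3b have 24, 27 and 49 UMIs, under a minimum of 50. The log2 ratio of Kcnj3, 5.85 over all cells, was 3.67 in letter B and 6.92 after thinning. No d05 cell of letter B had a UMI of Kcnj3. The value of 3.67 is thus a bound from the 3 counts set in place of none, not a smaller change. After thinning very few d05 cells kept a UMI of Kcnj3, so 6.92 is uncertain as well. The log2 ratio of Scn3b, 2.32 over all cells, was 0.97 after thinning. In letter B the log2 ratio of Scn8a was -0.20, of opposite sign to the value over all cells. The cause was not tested. That of Kcnn1, with 24 UMIs over all cells, was 0.043 in letter B. Equal counts at both days give such a value, as letter B held 346723 UMIs at d05 and 336645 at d25. It is therefore no change and not a reversal. Depth limits genes near 20 UMIs, whose intervals are wide. Of 528 gene values under alternatives, 479 moved by less than their counting interval and 47 moved by more. The 2 named for letter B turned sign, that of Kcnn1 only to no change.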

Other observations

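Genes that work with these channels were counted from lists chosen with earlier results known. Over all genes 21.4% were called higher and 25.6% lower, and the shares of each list are set beside these. Of 39 measured channel-associated proteins 22 were higher (56.4%) and 4 lower (10.3%), with a median log2 ratio of 0.82. They included Ank3, which anchors sodium and Kcnq channels in axons, at 101.7 and 685 CPM, Dpp6, a partner of Kv4 channels, at 227 and 815 CPM, Ank2 at 216 and 809 CPM and Rims2, which binds calcium channel beta subunits, at 866 and 1515 CPM. Abcc8, the sulfonylurea receptor, was at 4.33 and 47.9 CPM, and Nedd4l, a ubiquitin ligase that acts on several channels, at 684 and 251 CPM.

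Of 25 measured genes of calcium stores, pumps and exchangers 8 were higher (32%) and 4 lower (16%), with the release channels Itpr1 at 189 and 740 CPM and Ryr2 at 211 and 425 CPM, and Slc8b1 at 44.1 and 9.10 CPM. Of 51 other ion channels 22 were higher (43.1%) and 9 lower (17.6%), from Piezo2, opened by touch, at 14.3 and 178 CPM to Catsper2 at 40.98 and 10.7 CPM. Sodium and potassium pumps and cotransporters had 4 higher (25%) and 6 lower (37.5%) of 16. REST and its corepressors had 0 higher and 5 lower of 17, or 29.4% lower, near the share over all genes. Rest was at 136 and 98.9 CPM, Rcor2 at 245 and 55.4 CPM and Ehmt2 at 84.3 and 22.1 CPM.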
